A study of Mus musculus with 9 samples.

Results

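The genes described here are *Rnase2a*, *Ear1*, *Ear2*, *Il33*, *Il1rl1*, *Il5ra*, *Retnla* and *Chil3*, 8 of the 56748 genes in a table of read counts from mouse epididymal adipose tissue. They were picked by symbol as eosinophil ribonucleases and genes of type 2 immunity, and *Rnase2a* entered because its fall after 1 week of weight loss was among the largest. The tissue came from wild-type male C57BL/6J mice, 8 weeks old when the high-fat diet (HFD) began. Every group received HFD for 8 weeks. The Pre group was sampled at that point, the WL1 group after 1 further week on standard diet (SD) and the WL2 group after 2 further weeks on SD, with 3 libraries per group. Mice of the same age kept on HFD are not among the samples analysed here, so that diet, time and age cannot be told apart. The labels do not say whether a library is 1 mouse, and p-values measure the spread between these libraries.

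In type 2 immunity, stressed stromal cells release the alarmin IL-33, which acts on group 2 innate lymphoid cells, regulatory T cells and mast cells through its receptor ST2, the product of *Il1rl1*. Innate lymphoid cells then make IL-5 and IL-13. IL-5 keeps eosinophils alive through a receptor whose specific chain is encoded by *Il5ra*, and IL-4 and IL-13 turn on *Retnla* and *Chil3* in macrophages. In adipose tissue this circuit is known for maintaining alternatively activated macrophages in lean animals.

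Libraries held 16434450 to 22729072 counted reads. Adipocyte markers summed to between 23143 and 41549 CPM (read counts scaled to depth with TMM, the trimmed mean of M-values) over 10 genes in all libraries, while epididymis and testis markers stayed at or below 1.83 CPM. Pre replicate 2 stood apart by markers of B cells and lymph node, which summed to 371 CPM over 10 genes there and to between 13.1 and 73.6 CPM elsewhere. A gene was tested where at least 1 library reached 0.5 CPM, and 7 of the 8 genes passed. *Ear1* did not, and *Il5ra* passed in 2 of the 9 libraries. Because the tissue was sequenced in bulk, fewer cells of a type and less RNA per cell cannot be told apart in any value below.

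The defining granule markers of eosinophils were absent or near 0, against the name of the set. *Epx*, which encodes eosinophil peroxidase, had 0 reads in all 9 libraries, where a count of 0 allows up to between 0.132 and 0.183 CPM. The ribonuclease genes *Ear6* and *Ear14* also had 0 reads, *Ear10* had 1 and *Rnase2b* had 8 in all libraries together. *Prg3*, a second major basic protein gene, had 4 reads in all. *Prg2*, the main major basic protein gene, was the 1 gene tested of the 8 listed granule and ribonuclease genes, with 2 to 27 reads at Pre, 10 to 16 at WL1 and 14 to 32 at WL2. Its log2 fold change was 0.11 at WL1 against Pre (adjusted p = 0.949) and 0.96 at WL2 against Pre (adjusted p = 0.445, edgeR quasi-likelihood test with Benjamini-Hochberg adjustment). Pre replicate 2 held 27 of the 35 *Prg2* reads at Pre (1.49 CPM), so that both fold changes rest on that library. The other Pre libraries had 0.0923 and 0.354 CPM, below all libraries of WL1 (0.543 to 0.787) and WL2 (0.767 to 1.81). *Siglecf*, a surface lectin of eosinophils, had 0.767 to 1.29 CPM at Pre, 1.29 to 2.14 at WL1 and 0.657 to 1.02 at WL2. *Ccr3*, the eotaxin receptor, had 0.295 to 0.606 CPM at Pre, 1.15 to 1.46 at WL1 and 0.680 to 1.20 at WL2, so that WL1 and WL2 lay above Pre. *Ccr3* had a log2 fold change of 1.41 (SE 0.42) at WL1 against Pre (adjusted p = 0.0699, edgeR), opposite in sign to that of *Rnase2a*. Of the 11 tested identity and surface genes of eosinophils, *Cebpe*, *Alox15* and *Gata2* changed by -0.87, -0.77 and -0.065 there. The other tested genes of that list were positive, and its median was 0.70. They include *Adgre1*, also listed among the resident macrophage markers, and *Csf2rb*, *Csf2rb2* and *Pirb*, which macrophages and other myeloid cells also express. Neither these signs nor the median stand for eosinophils alone. The ribonucleases are therefore called by their symbols below.

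Among the ribonucleases, *Rnase2a* was 13.3-fold lower at WL1 than at Pre, while *Ear2* lay within the range of Pre at WL1 and was lower at WL2. The products are small secreted enzymes of the ribonuclease A family, and *Rnase2a* is related to human eosinophil-derived neurotoxin. *Rnase2a* lies at chr14:51492719-51493569 on the minus strand in the authors' table. The submitters' processing notes name GRCm38, but the table's coordinates differ from those of GENCODE M21 on that build for all 8 genes, so that they are given without a build. *Ear1* spans chr14:44056222-44112974 on the minus strand and *Ear2* chr14:44340111-44340991 on the plus strand of that table. The sequences around their start sites are shown because they are alike although the levels of the genes were not. They run from 250 bases before to 50 bases after the RefSeq start site on GRCm38.p6, at chr14:51256063-51256362 (minus strand) for *Rnase2a*, chr14:43819590-43819889 (minus strand) for *Ear1* and chr14:44102404-44102703 (plus strand) for *Ear2*. Capitals mark matches to TTGCNNAA, a short form of the motif of C/EBP factors searched on both strands:
Rnase2a: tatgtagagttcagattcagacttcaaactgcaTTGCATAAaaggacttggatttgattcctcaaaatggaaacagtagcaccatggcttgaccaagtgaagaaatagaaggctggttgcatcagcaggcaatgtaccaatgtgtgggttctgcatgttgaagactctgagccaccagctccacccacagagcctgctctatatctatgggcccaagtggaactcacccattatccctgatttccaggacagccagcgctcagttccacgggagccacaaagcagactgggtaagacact
Ear1: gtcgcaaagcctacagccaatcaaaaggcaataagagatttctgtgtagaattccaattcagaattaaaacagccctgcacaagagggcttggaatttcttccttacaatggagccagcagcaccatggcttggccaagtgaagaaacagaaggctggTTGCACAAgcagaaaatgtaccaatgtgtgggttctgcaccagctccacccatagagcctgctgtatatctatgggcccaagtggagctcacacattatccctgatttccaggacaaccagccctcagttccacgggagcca
Ear2: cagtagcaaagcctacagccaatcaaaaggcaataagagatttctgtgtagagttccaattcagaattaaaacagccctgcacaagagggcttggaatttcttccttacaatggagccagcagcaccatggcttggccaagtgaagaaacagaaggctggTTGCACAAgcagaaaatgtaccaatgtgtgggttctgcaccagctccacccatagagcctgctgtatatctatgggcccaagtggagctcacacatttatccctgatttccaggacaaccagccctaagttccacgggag

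The windows of *Ear1* and *Ear2* were identical at 98.7% of 298 aligned positions, and that of *Rnase2a* matched *Ear2* at 81.1% of 275. Each of the 3 held 1 match to TTGCNNAA, which occurs in 10.8% of all 32851 windows of this length in the table. It began 217 bases before the start site in *Rnase2a*, 92 before it in *Ear1* and 90 before it in *Ear2*. No window of the 3 held AGATAA, which GATA factors bind and which 11.2% of all windows contain on either strand. A match describes letters and is no evidence of binding.

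The transcripts differ more between *Rnase2a* and its paralogs than between *Ear1* and *Ear2*. In GENCODE M21, the *Rnase2a* transcript was identical to that of *Ear2* at 81.0% of 693 aligned positions, and the longest run that both shared had 46 bases. The *Ear1* and *Ear2* transcripts were identical at 96.2% of 717 positions and shared a run of 96 bases. *Ear10* and *Ear2* shared a run of 185 bases. Reads of *Ear1*, *Ear2* and *Ear10* may therefore be split between the genes or left out, and how the authors counted reads that align to several places is not stated in the labels or the methods of the study.

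*Rnase2a* had 8.73, 11.4 and 15.4 CPM in the Pre libraries, 0.814, 1.19 and 0.618 CPM in the WL1 libraries and 0.164, 0.567 and 0.695 CPM in the WL2 libraries. The Pre libraries lay above all others, and WL1 and WL2 overlapped. In reads, the sums were 688 at Pre, 52 at WL1 and 25 at WL2. The log2 fold change was -3.73 (SE 0.40) at WL1 against Pre, which is 13.3-fold lower, -4.63 (SE 0.44) at WL2 against Pre and -0.90 (SE 0.47) at WL2 against WL1. These values chose the gene, and since each comparison shares libraries with that choice they are given without a test. With each library left out in turn, the change lay from -4.03 to -3.50 at WL1, and from -5.0 to -4.22 at WL2. In the authors' FPKM (fragments scaled by gene length and library depth), the level was 16.1 ± 4.6 at Pre, 1.17 ± 0.388 at WL1 and 0.650 ± 0.384 at WL2 (mean ± SD, n = 3).

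**Figure D1:**
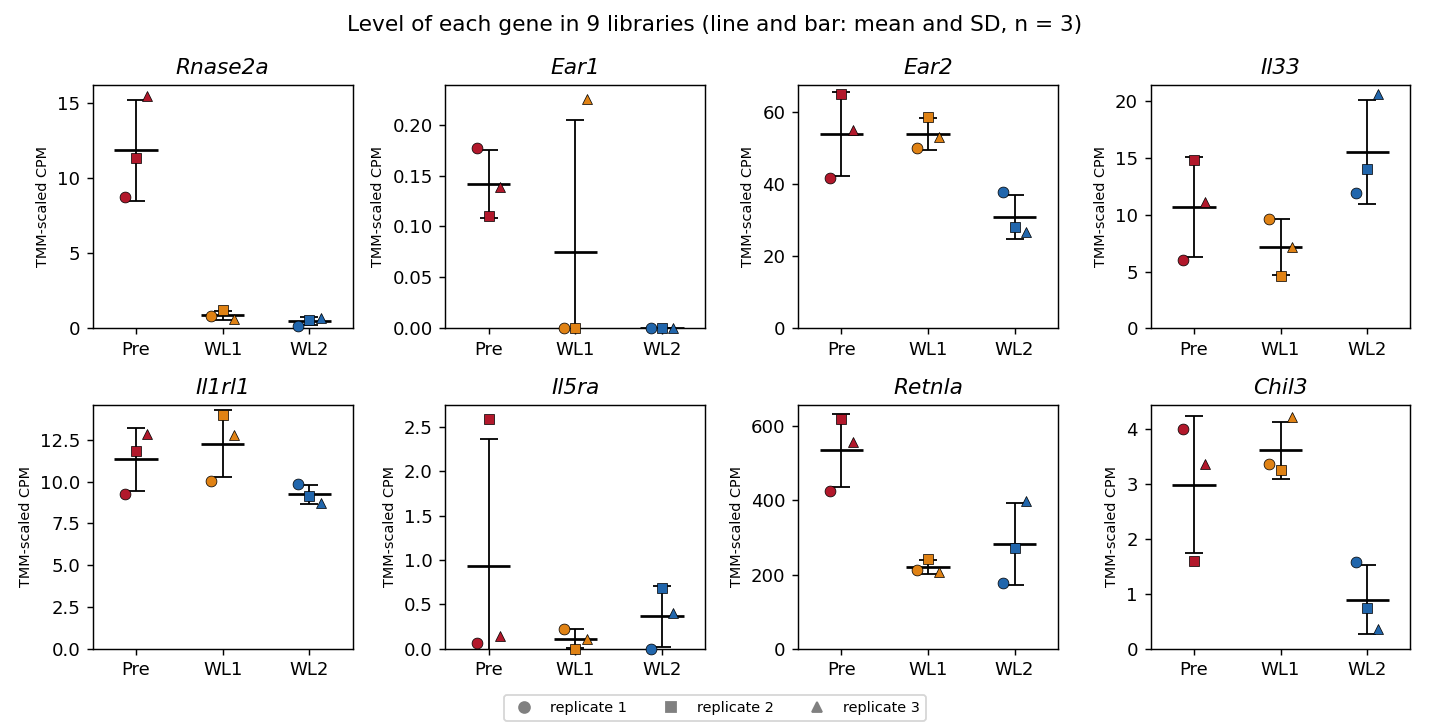
Level of each of the 8 genes in TMM-scaled CPM (vertical axes, each starting at 0) in the 3 libraries of Pre, WL1 and WL2. Symbols are libraries, horizontal lines are means and bars are SD (n = 3), and *Rnase2a* at Pre, from 8.73 to 15.4 CPM, lies far above WL1 and WL2.

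*Ear2* had 41.8, 64.8 and 55.0 CPM at Pre, 49.8, 58.7 and 53.0 CPM at WL1 and 37.8, 28.0 and 26.8 CPM at WL2. The WL1 libraries lay within the range of Pre, and the WL2 libraries lay below all others. The log2 fold change was -0.00087 (SE 0.18) at WL1 against Pre, and its sign changed with the scaling. *Ear2* fell by 0.80 on the log2 scale (SE 0.18) at WL2 against Pre (adjusted p = 0.0197). It also fell by 0.80 (SE 0.18) between WL1 and WL2 (adjusted p = 0.0394, edgeR, Benjamini-Hochberg adjusted). The first call was lost without WL2 replicates 2 or 3 (adjusted p = 0.0915 and 0.0829, edgeR). The second was kept in 3 of the 9 fits that left out 1 library and was lost when the library left out was Pre replicate 3, one of WL1, or replicate 2 or 3 of WL2 (adjusted p up to 0.189, edgeR), with changes between -0.97 and -0.71. It was also lost in limma on log2(FPKM + 1) (adjusted p = 0.0517).

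*Ear1* had 3, 2 and 3 reads in the Pre libraries, 0, 0 and 4 in the WL1 libraries and 0 in each WL2 library. These numbers are at or near the 3 reads that a count of 0 allows in 1 library, so that no fold change is given. Reads from *Ear1* transcripts could be among those counted for *Ear2*, and the reverse.

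The share of *Rnase2a* within the family uses the same reads as the choice of the gene and is a description. *Rnase2a* made up 17.2% of the reads of the 7 ribonuclease genes in Pre replicate 1 (95% exact binomial interval from 14.8% to 19.9%), 14.9% in replicate 2 (13% to 16.8%) and 21.8% in replicate 3 (19.8% to 24.0%). The share was 1.61%, 1.99% and 1.15% in the WL1 libraries and 0.432%, 1.98% and 2.52% in the WL2 libraries. The highest upper bound after weight loss was 4.36%, in WL2 replicate 3. These intervals cover counting error only. For each *Rnase2a* read there were 3.57 to 5.71 *Ear2* reads at Pre and 38.6 to 230 after weight loss.

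**Figure D2:**
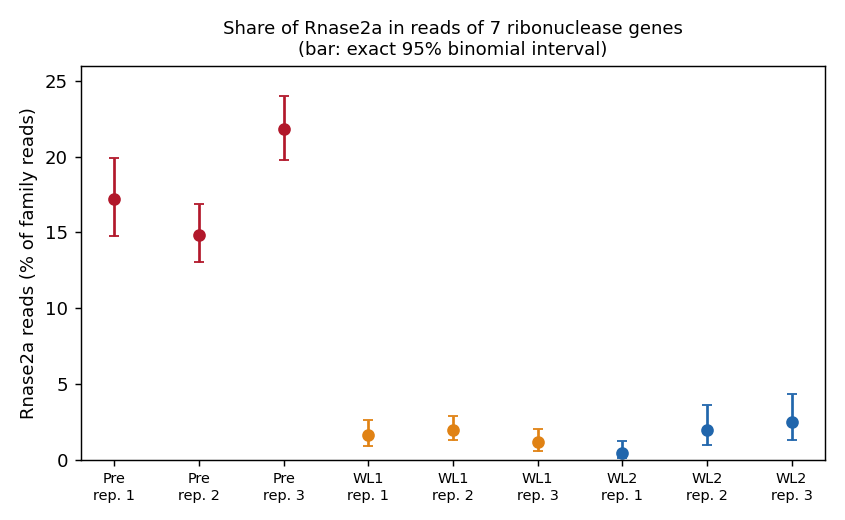
Reads of *Rnase2a* as a percentage of the reads of *Rnase2a*, *Rnase2b*, *Ear1*, *Ear2*, *Ear6*, *Ear10* and *Ear14* (vertical axis) in each library (horizontal axis), with exact 95% binomial intervals as bars. Pre libraries lie between 14.9% and 21.8% and the libraries after weight loss between 0.432% and 2.52%.

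*Retnla*, a small secreted protein of the resistin family that IL-4 and IL-13 induce in macrophages, was the most abundant of the 8 genes. It had 426, 621 and 558 CPM at Pre, 213, 243 and 206 CPM at WL1 and 178, 271 and 398 CPM at WL2. All Pre libraries lay above all libraries of WL1 and WL2, and WL2 was spread widely around WL1. *Rnase2a* also separated Pre from both later groups, and so did the share of mitochondrial reads, at 3.15% to 3.57% at Pre, 1.86% to 2.03% at WL1 and 2.28% to 2.88% at WL2. The summed adipocyte markers lay lower at WL1 (23143 to 30469 CPM) than at Pre (33074 to 41549 CPM) and WL2 (33906 to 36873 CPM). The part of either in the values of *Retnla* and *Rnase2a* was not tested. The log2 fold change was -1.28 (SE 0.25) at WL1 against Pre, a 2.43-fold lower level. *Retnla* fell by 0.92 on the log2 scale (SE 0.25) at WL2 against Pre (adjusted p = 0.0440, edgeR, Benjamini-Hochberg adjusted), and differed by 0.36 (SE 0.25) between WL2 and WL1 (adjusted p = 0.471, edgeR). The call at WL2 was kept without Pre replicate 1 or WL2 replicate 3 and lost when the library left out was Pre replicate 2 or 3, one of WL1, or replicate 1 or 2 of WL2 (edgeR adjusted p from 0.0124 to 0.143 over the 9 fits), with changes between -1.25 and -0.68. Of 9 other settings it was kept in 5, and it was lost without scaling factors (adjusted p = 0.0740, edgeR), with the compared phases alone (adjusted p = 0.0903, edgeR) and in limma on log2(FPKM + 1) and log2(FPKM + 0.1) (adjusted p = 0.0650 and 0.0642).

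*Chil3*, which encodes the chitinase-like protein Ym1, is induced by the same cytokines. It had 4.01, 1.60 and 3.37 CPM at Pre, 3.37, 3.26 and 4.22 CPM at WL1 and 1.59, 0.736 and 0.347 CPM at WL2. WL2 lay below all other libraries, with Pre replicate 2 (1.60 CPM) just above WL2 replicate 1 (1.59 CPM). The log2 fold change was 0.27 (SE 0.46) at WL1 against Pre, -1.73 (SE 0.50) at WL2 against Pre (adjusted p = 0.0534) and -2.01 (SE 0.50) at WL2 against WL1 (adjusted p = 0.0544, edgeR, Benjamini-Hochberg adjusted), so that both changes at WL2 just missed the threshold. Both passed without Pre replicate 2 (adjusted p = 0.0266 and 0.0320, edgeR) and without WL2 replicate 1 (adjusted p = 0.0189 and 0.0149, edgeR), and both passed in DESeq2 (adjusted p = 0.00629 and 0.00202). Each passed in 4 of 9 other settings.

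The start regions of *Retnla* and *Chil3* are shown for the binding motifs of STAT factors, since STAT6 is the known mediator of IL-4 and IL-13. They are taken from RefSeq on GRCm38.p6, at chr16:48842359-48842658 (plus strand) for *Retnla* and chr3:106167515-106167814 (minus strand) for *Chil3*. In *Retnla*, capitals mark TTCNNNNGAA and, just after it, TTGCNNAA. In *Chil3*, they mark TTCNNNGAA, which has a shorter spacer, and AGATAA on the reverse strand:
Retnla: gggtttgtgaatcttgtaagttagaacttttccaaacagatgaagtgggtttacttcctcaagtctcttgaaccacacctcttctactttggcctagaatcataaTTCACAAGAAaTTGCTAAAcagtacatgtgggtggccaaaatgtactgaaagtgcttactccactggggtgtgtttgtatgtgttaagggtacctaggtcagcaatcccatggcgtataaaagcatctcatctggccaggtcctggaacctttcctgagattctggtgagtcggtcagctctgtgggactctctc
Chil3: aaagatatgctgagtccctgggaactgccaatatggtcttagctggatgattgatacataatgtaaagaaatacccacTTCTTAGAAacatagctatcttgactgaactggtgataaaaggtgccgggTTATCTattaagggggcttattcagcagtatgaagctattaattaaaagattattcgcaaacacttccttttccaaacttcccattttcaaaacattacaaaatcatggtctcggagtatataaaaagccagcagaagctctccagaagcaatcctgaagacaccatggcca

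TTCNNNNGAA, the spacing that STAT6 is known to prefer, began 145 bases before the start site of *Retnla* and occurs in 6.95% of all windows. It reads the same on both strands. TTCNNNGAA began 172 bases before the start site of *Chil3* and occurs in 8.30% of all windows. Of the windows of the other genes, TTCNNNNGAA was found in *Il5ra* and in 1 of the 2 windows of *Il33*. It was found in no window of *Rnase2a*, *Ear1*, *Ear2* or *Il1rl1*, which says only that these letters are not there.

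Cell types that can carry *Ear2*, *Retnla* and *Chil3* were examined by their markers. The monocyte markers summed to between 305 and 435 CPM at Pre, 264 and 345 at WL1 and 251 and 388 at WL2, with 9 of 9 genes tested. *Ccr2*, the chemokine receptor that brings monocytes into tissue, fell by 1.20 on the log2 scale (SE 0.17) at WL2 against Pre (adjusted p = 0.00148, edgeR, Benjamini-Hochberg adjusted) and was called in each of the 9 fits that left out 1 library. It also fell by 0.85 (SE 0.16) at WL2 against WL1 (adjusted p = 0.0260, edgeR), which was lost in 5 of those fits. The resident macrophage markers, of which 0 of 13 passed in any comparison, summed to between 650.1 and 1305 CPM at Pre, 1060 and 1696 at WL1 and 844 and 1054 at WL2. Of these markers, 3, 0 and 7 reached an unadjusted p under 0.05 in edgeR in the 3 comparisons, with WL2 against WL1 last. Their median log2 fold change was -0.31, 0.067 and 0.14 in the same order. *Adgre1* alone had 67.4 to 141 CPM at Pre and 225 to 452 at WL1, so that the sums at WL1 do not stand for the list. The neutrophil markers summed to between 25.9 and 38.6 CPM at Pre, 18.2 and 21.4 at WL1 and 19.9 and 27.1 at WL2, with *Ly6g* at 0 reads in all libraries. *S100a8*, an abundant neutrophil and monocyte protein, fell by 2.46 on the log2 scale (SE 0.52) at WL1 against Pre (adjusted p = 0.0221, edgeR), lost in 5 of 9 fits, and by 4.07 on the log2 scale (SE 0.59) at WL2 against Pre (adjusted p = 0.00202, edgeR). The median log2 fold change of the 7 tested neutrophil markers was -0.13 at WL1 and 0.78 at WL2 against Pre, so that *S100a8* does not stand for its list. *Ltf*, lactoferrin, rose by 2.84 (SE 0.73) at WL1 against Pre (adjusted p = 0.0439, edgeR) at levels below 1 CPM, and lost the call in 8 of 9 fits. The part of these cells in the values of *Ear2*, *Retnla* and *Chil3* was not tested.

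*Il33* encodes an alarmin of the IL-1 family that is stored in the nuclei of stromal cells. It had 6.02, 14.8 and 11.1 CPM at Pre, 9.61, 4.64 and 7.20 CPM at WL1 and 11.9, 14.0 and 20.6 CPM at WL2. The WL2 libraries lay above those of WL1, and Pre overlapped both. The log2 fold change was -0.58 (SE 0.35) at WL1 against Pre, 0.54 (SE 0.35) at WL2 against Pre (adjusted p = 0.349) and 1.12 (SE 0.35) at WL2 against WL1 (adjusted p = 0.10, edgeR, Benjamini-Hochberg adjusted). The last difference was 2.17-fold, passed in DESeq2 (adjusted p = 0.0193) and without a filter on low counts (adjusted p = 0.0294, edgeR), and lay between 0.86 and 1.39 with each library left out, where it passed in 0 of 9 fits.

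The markers of mesothelium, a known source of *Il33* in visceral fat, moved with *Il33* from library to library. Over 12 genes they summed to 52.8, 491 and 439 CPM at Pre, 302, 59.7 and 153 CPM at WL1 and 328, 692 and 929 CPM at WL2. Pre replicate 1 and WL1 replicate 2 had the lowest values of both, and WL2 replicate 3 had the highest of both. Of the 12 mesothelial markers, 0 passed at WL2 against WL1 by edgeR, although 11 had an unadjusted p under 0.05, and their median log2 fold change was 1.92, against -0.0014 over all genes tested. Fibroblast and progenitor markers, another known source, summed to between 1363 and 1837 CPM at WL1 and between 1875 and 2343 CPM at WL2. Of these markers, *Dcn*, a matrix proteoglycan, rose by 0.84 (SE 0.19) and *Sema3c*, a secreted semaphorin, fell by 1.17 (SE 0.31) on the log2 scale at WL2 against Pre (adjusted p = 0.0215 and 0.0385, edgeR), lost in 4 and 5 of the 9 fits with 1 library left out. How much of the difference in *Il33* came with these cells was not tested.

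*Il1rl1* encodes ST2, the receptor of IL-33. Its membrane and soluble forms are not separated in counts per gene. It had 9.26, 11.8 and 12.9 CPM at Pre, 10.04, 14.0 and 12.8 CPM at WL1 and 9.86, 9.12 and 8.74 CPM at WL2. The libraries of WL2 lay just below those of WL1, while both overlapped Pre. The log2 fold change was 0.11 (SE 0.17) at WL1 against Pre, -0.30 (SE 0.17) at WL2 against Pre (adjusted p = 0.313) and -0.41 (SE 0.17) at WL2 against WL1 (adjusted p = 0.207, edgeR, Benjamini-Hochberg adjusted). Of the cells that carry ST2, mast cell and basophil markers summed to between 43.9 and 58.4 CPM at Pre, 49.6 and 57.2 at WL1 and 46.6 and 75.8 at WL2. Of them, 8 of 11 were tested and 0 passed in any comparison, with 0, 3 and 2 at an unadjusted p under 0.05 in the 3 edgeR comparisons, in the same order. Of 12 tested markers of group 2 innate lymphoid cells and regulatory T cells, 1 passed at WL1 against Pre, beside 7.29% of all genes tested. The median log2 fold change of these 12 was -0.13 in that comparison, so that the 1 call does not stand for the list. *Il7r*, the receptor chain for IL-7, was at 11.7 to 28.3 CPM at Pre, 63.1 to 147 at WL1 and 23.1 to 70.1 at WL2, and rose by 2.15 (log2 fold change, SE 0.49) at WL1 against Pre (adjusted p = 0.0292, edgeR). That call was lost without Pre replicates 1 or 2 or WL1 replicates 2 or 3 (up to adjusted p = 0.0972, edgeR).

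*Il5ra*, the chain that binds IL-5 on eosinophils and some B cells, rested on 1 library. It had 1, 47 and 3 reads at Pre, 4, 0 and 2 at WL1 and 0, 12 and 7 at WL2. The 47 reads (2.59 CPM) were in Pre replicate 2, the library in which *Ms4a1* and *Cd79a* of B cells reached 45.8 and 67.1 CPM. *Il5ra* changed by -1.34 on the log2 scale (SE 1.33) at WL2 against Pre (adjusted p = 0.556, edgeR, Benjamini-Hochberg adjusted) and by 1.76 without Pre replicate 2 (adjusted p = 0.485, edgeR), so that its direction was set by that library. At WL1 against Pre, the change was -3.05 (SE 1.52) and 0.051 without Pre replicate 2. At WL2 against WL1 it was 1.70 (SE 1.59, adjusted p = 0.603, edgeR).

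**Figure D3:**
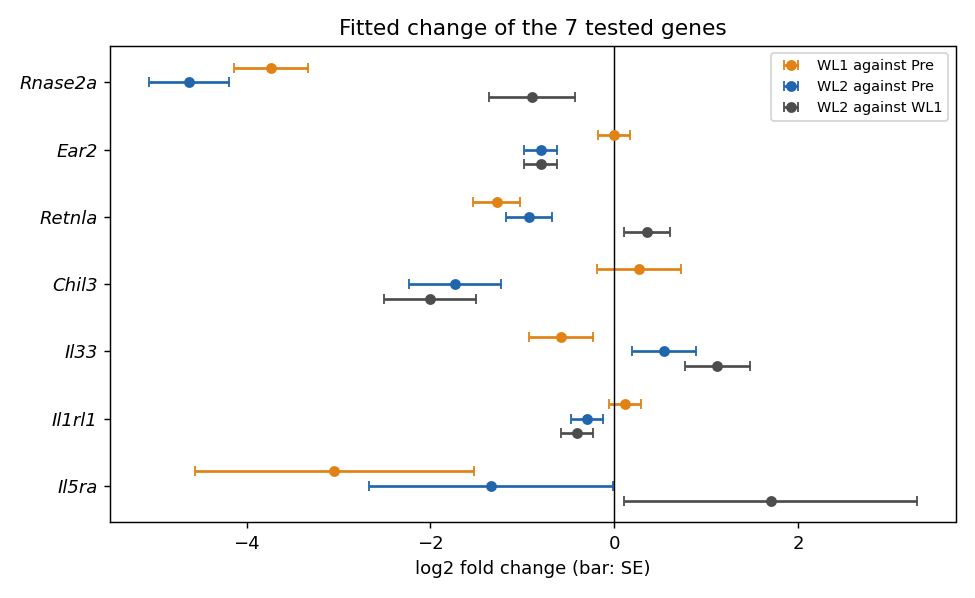
Fitted log2 fold changes (horizontal axis) of the 7 tested genes in the 3 comparisons, with SE as bars. *Rnase2a* lies farthest from 0 in both comparisons with Pre (-3.73 and -4.63), *Ear2* and *Chil3* lie near 0 at WL1 and below it at WL2, and the bars of *Il5ra* are the widest.

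Of the 7 tested genes, 2 passed the adjusted threshold of edgeR at WL1 against Pre, namely *Rnase2a* and *Retnla*, both lower. Over all 18510 tested genes, 7.29% were called in that comparison and 4.69% were called lower, and nothing is read from the count because the comparison chose *Rnase2a*. For *Rnase2a*, a place past the threshold here and at WL2 against Pre is no test, since its fall chose it. *Retnla* lost its call at WL1 against Pre without WL1 replicates 1 or 3. At WL2 against Pre, 3 of 7 passed, namely *Rnase2a*, *Ear2* and *Retnla*, all lower, while 10% of all genes were called and 6.66% were called lower. *Rnase2a* was chosen on the same Pre libraries, which leaves 2 of the other 6 genes, and nothing is read from the 3. Their number was 1 without WL2 replicate 2. At WL2 against WL1, 1 of 7 passed, *Ear2*, against 3.68% of all genes called and 2.37% called lower, and the number was between 0 and 2 with each library left out. It was 0 when the library left out was Pre replicate 3, one of WL1, or replicate 2 or 3 of WL2, and 2 without Pre replicate 2 or WL2 replicate 1. The libraries of the groups did not overlap in 2 of the 7 genes at WL1 against Pre, in 4 at WL2 against Pre and in 4 at WL2 against WL1, beside 28.7%, 30.9% and 30.3% of all genes tested. The median log2 fold change of the 7 was -0.58, -0.92 and -0.41 in the 3 comparisons, against medians of 0.021, 0.0084 and -0.0014 over all genes. The 7 include *Rnase2a*, chosen for its fall, and *Il5ra*, whose sign at WL1 and at WL2 against Pre turned without Pre replicate 2. Nothing is read from these medians. The comparisons share libraries, so that a gene's values in them are not independent.

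Levels were compared between genes only per length, in the authors' FPKM. At Pre, the order was *Retnla* (839 ± 157, mean ± SD, n = 3), *Ear2* (70.3 ± 15.2), *Rnase2a* (16.1 ± 4.6), *Il33* (3.46 ± 1.43), *Chil3* (1.72 ± 0.716) and *Il1rl1* (1.54 ± 0.256), with *Il5ra* and *Ear1* below 1. *Retnla*, *Ear2*, *Rnase2a* and *Il33* did not overlap in FPKM between neighbours at Pre, whereas *Il33* overlapped with *Chil3* and *Chil3* with *Il1rl1*. At WL2, *Rnase2a* (0.650 ± 0.384) ranked after *Il33* (5.05 ± 1.54) and *Il1rl1* (1.26 ± 0.0565) and overlapped with *Chil3* (0.508 ± 0.353). Over the 9 libraries, the order by mean level was the same by FPKM and by TMM-scaled CPM per kilobase.

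The other ligands of type 2 immunity ranged from 0 reads to a few CPM. Of 9 listed type 2 cytokines and alarmins, 4 were tested and 0 passed by edgeR in any comparison, with 1, 0 and 1 at an unadjusted p under 0.05 at WL1 against Pre, WL2 against Pre and WL2 against WL1. *Il5* had 0 reads at Pre, 7 at WL1 and 3 at WL2, and *Il13* had 17, 7 and 12. *Il4* lay between 1.57 and 3.30 CPM and *Tslp*, another epithelial and stromal alarmin, between 0.760 and 2.78 CPM. *Il3* and *Il9* had 0 reads in all libraries.

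Of 19 tested receptors and signal transducers of these cytokines, 1 passed at WL1 against Pre, *Il7r*, and 0 passed by edgeR in the other comparisons (2 and 5 at an unadjusted p under 0.05). Of all 159 tested listed genes, edgeR called 9.43%, 9.43% and 3.14% in the 3 comparisons, with WL2 against WL1 last. Over all genes tested, the shares were 7.29%, 10% and 3.68%. The tested identity and surface genes of eosinophils numbered 11. Of them, 3 rose at WL1 against Pre by edgeR. In the other comparisons, 0 passed (2 and 7 at an unadjusted p under 0.05). The 3 were *Csf2rb* (log2 fold change 0.70, SE 0.14, adjusted p = 0.0171) and *Csf2rb2* (1.23, SE 0.27, adjusted p = 0.0237), the shared receptor chain of IL-3, IL-5 and GM-CSF and its paralog, and *Pirb* (1.5, SE 0.37, adjusted p = 0.0376), an inhibitory receptor of myeloid cells, with edgeR adjusted p throughout. Macrophages and other myeloid cells also express these 3. The calls were lost in 3, 3 and 6 of the 9 fits that left out 1 library, in each case without Pre replicate 1. Reads of *Csf2rb* and *Csf2rb2* may be split between them.

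**Figure D4:**
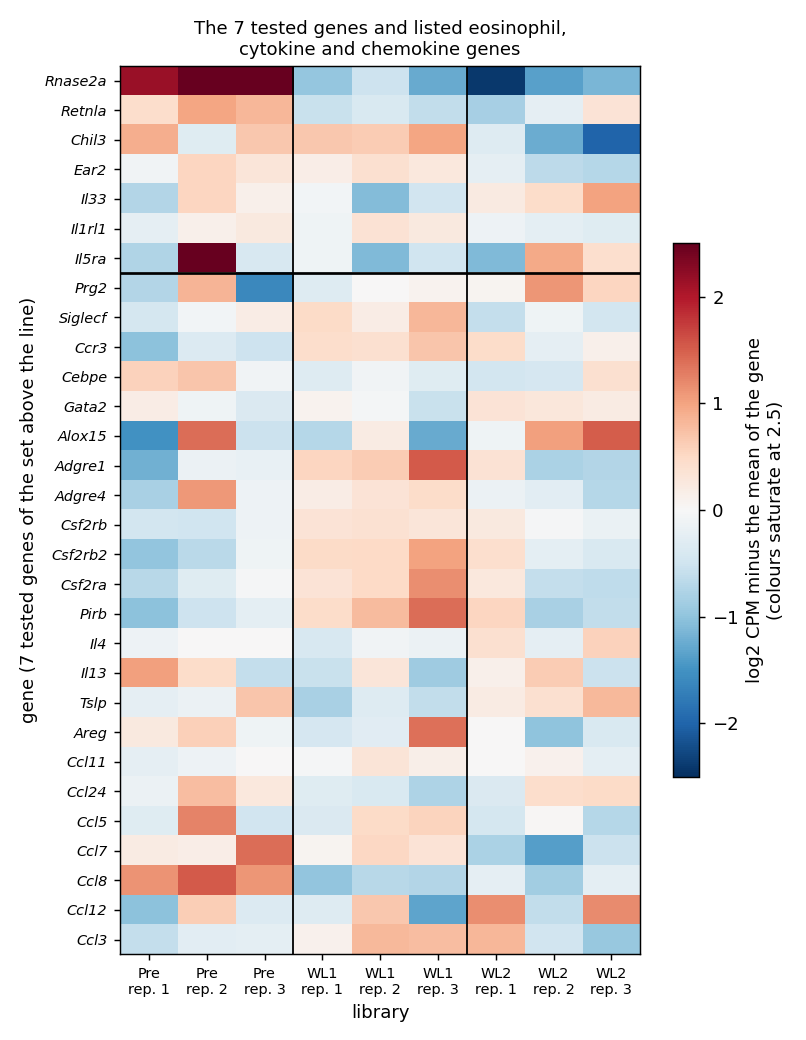
Log2 CPM of each gene minus its mean over the 9 libraries (colour, saturated at 2.5) for the 7 tested genes above the line and 23 listed genes of eosinophil, cytokine and chemokine lists below it, by library (columns). *Rnase2a* is high in the 3 Pre libraries and *Il5ra* in Pre replicate 2. *Csf2rb*, *Csf2rb2* and *Pirb* lie above their means in the 3 WL1 libraries and in WL2 replicate 1.

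Of 7 tested chemokines that attract eosinophils, 1 passed at WL1 against Pre, 2 at WL2 against Pre and 0 at WL2 against WL1 by edgeR (2 at an unadjusted p under 0.05). *Ccl8*, a ligand that in mice acts on CCR8, had 15.1 to 20.3 CPM at Pre, 3.37 to 4.22 at WL1 and 3.68 to 5.86 at WL2. It fell by 2.11 on the log2 scale (SE 0.22) at WL1 against Pre (adjusted p = 0.000730) and by 1.72 (SE 0.22) at WL2 against Pre (adjusted p = 0.000902, edgeR, Benjamini-Hochberg adjusted), and kept both calls with each library left out. *Ccl7*, a ligand of CCR2 and CCR3, was at 25.95 to 60.7 CPM at Pre, 24.2 to 32.9 at WL1 and 8.72 to 15.9 at WL2 and fell by 1.58 (SE 0.33) at WL2 against Pre (adjusted p = 0.0153, edgeR), a call that was lost without WL2 replicate 2. *Ccl11*, eotaxin, did not pass, with 62.8 to 74.2 CPM at Pre, 72.0 to 91.5 at WL1 and 62.1 to 78.9 at WL2.

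Other genes of alternative activation in macrophages did not share 1 direction with *Retnla*. Of 19 tested, 1 was higher and 3 were lower at WL1 against Pre, and 2 were higher and 3 lower at WL2 against Pre. At WL2 against WL1, 1 was higher. The medians were -0.065, -0.12 and -0.069 in the 3 comparisons. Over all genes tested, 7.29%, 10% and 3.68% were called, in the same order. The lectin genes *Mgl2*, *Cd209a* and *Cd209d* were the 3 lower at WL1. *Mgl2* had 45.8 to 77.4 CPM at Pre, 26.9 to 34.7 at WL1 and 28.7 to 37.2 at WL2, and fell by 1.01 (SE 0.19) on the log2 scale at WL1 (adjusted p = 0.0136) and by 0.86 (SE 0.19) at WL2 (adjusted p = 0.0193, edgeR, Benjamini-Hochberg adjusted). *Cd209a* fell by 1.03 (SE 0.17) at WL1 (adjusted p = 0.00834) and by 0.62 (SE 0.17) at WL2 (adjusted p = 0.0479, edgeR). *Cd209d* fell by 1.16 (SE 0.27) at WL1 (adjusted p = 0.0313, edgeR) and was at -0.30 (SE 0.26) at WL2. The genes higher at WL2 were the transcription factors *Klf4* (0.75, SE 0.14, adjusted p = 0.00920) and *Myc* (0.96, SE 0.16, adjusted p = 0.00423, edgeR), which are not specific to macrophages. *Myc* was also higher at WL1 (0.72, SE 0.16, adjusted p = 0.0244, edgeR). *Tgm2*, a transglutaminase, fell by 0.37 (SE 0.10) at WL2 against Pre (adjusted p = 0.0376, edgeR), and *Pparg*, a nuclear receptor abundant in adipocytes, rose by 0.54 (SE 0.13) at WL2 against WL1 (adjusted p = 0.0456, edgeR). Of these, *Cd209a* at WL1 and *Klf4* and *Myc* at WL2 were called with each library left out, while *Mgl2* at WL1 was lost without WL1 replicate 3, *Mgl2* at WL2 in 4, *Myc* at WL1 in 3, *Tgm2* in 7, *Pparg* in 6, *Cd209d* at WL1 in 5 and *Cd209a* at WL2 in 8 of the 9 fits.

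Among the paralogs of *Retnla* and *Chil3*, *Retn* took another course. It encodes resistin, which in mice is made by adipocytes, and had 668 to 910.0 CPM at Pre, 149 to 297 at WL1 and 515 to 666 at WL2. *Retn* fell by 1.86 on the log2 scale (SE 0.24) at WL1 against Pre (adjusted p = 0.00197) and rose by 1.51 (SE 0.24) at WL2 against WL1 (adjusted p = 0.0122, edgeR, Benjamini-Hochberg adjusted), the latter lost without WL2 replicates 2 or 3. Its change at WL2 against Pre was -0.35 (SE 0.23, adjusted p = 0.369, edgeR). Of 10 adipocyte markers, 0 rose and 3 fell at WL1 against Pre, and 1 rose and 3 fell at WL2 against Pre. At WL2 against WL1, 1 rose and 1 fell (edgeR adjusted p from 2.03e-05 to 0.040 over all these calls). Beside them, 7.29%, 10% and 3.68% of all genes tested were called in the 3 comparisons. *Cidec* and *Lep*, a lipid droplet protein and leptin, fell by 0.84 (SE 0.11) and 0.83 (SE 0.13) at WL1 against Pre and by 0.67 (SE 0.11) and 2.03 (SE 0.14) at WL2 against Pre, and were called with each library left out. *Lep* fell by 1.20 (SE 0.14) at WL2 against WL1. *Plin1*, a lipid droplet coat protein, fell by 0.52 (SE 0.13) at WL1 and *Acsl1*, a fatty acid activating enzyme, by 0.62 (SE 0.14) at WL2 against Pre, while *Cfd*, adipsin, rose by 1.61 (SE 0.40) at WL2 against Pre and by 1.94 (SE 0.40) at WL2 against WL1, calls that were lost in 8, 3, 4 and 5 of the 9 fits. *Chil4*, a close paralog of *Chil3*, had 24 reads in all libraries, and *Retnlb* had 0.

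Genes whose log2 CPM followed *Rnase2a* most closely over the 9 libraries were ranked by Pearson's r among 13051 protein-coding genes with a mean of at least 1 CPM. The 10 highest were *Pomt2*, *Ddr1*, *Sar1a*, *Rnf11*, *Amer1*, *Abcb9*, *Cyb5b*, *Mcfd2*, *Aldh1l1* and *C1rl*, with r between 0.976 and 0.987. Each was lower at WL1 and WL2 than at Pre in the fitted values, by at most 1.64 at WL1 (*Aldh1l1*, log2 fold change -1.64) against -3.73 for *Rnase2a*. Ranked by Spearman's rho, 0 of these 10 were among the highest 10, so that the ranking rests on the gap between Pre and the other groups. The nearest 3 were *Slc13a3*, *H2-DMb1* and *Cmpk1* for *Ear2* (r from 0.959 to 0.981), *Tfcp2l1*, *Spock3* and *Igfbp6* for *Il33* (0.972 to 0.979), *Gng12*, *Erp44* and *Fancd2* for *Il1rl1* (0.924 to 0.950) and *Ostm1*, *Eif4e2* and *Sgo2a* for *Chil3* (0.965 to 0.973). For *Retnla* they were *Myh14*, *Hba-a1* and *Galnt2* (0.970 to 0.98). *Hba-a1*, a haemoglobin gene of red blood cells, was at -1.53 at WL1 and -1.18 at WL2 against Pre on the log2 scale, beside -1.28 and -0.92 for *Retnla*, and the part of blood in the values of *Retnla* was not tested. For *Il5ra*, *Mllt1*, *Haao* and *Nudcd3* were nearest (0.935 to 0.958). The libraries differ in depth and composition, whose part in r was not tested, and the values of r are descriptions without a test.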

How the data were processed

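RNA sequencing of epididymal adipose tissue was analysed in 9 libraries, grouped as Pre, WL1 and WL2 by the labels. The authors deposited read counts per gene without normalization and FPKM for 56748 genes. The submitters' processing notes name HISAT2, HISAT, TopHat2, CASAVA and GRCm38 (mm10), with no role or order. For the counting program, strand setting and annotation: not given in the sources used here. Coordinates in the table differ from GENCODE M21 on GRCm38 for all 8 genes, so they are given without a build. Sequences came from RefSeq on GRCm38.p6, where 8 of 8 genes matched.

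A gene entered the test if any library reached 0.5 CPM (18510 genes). The quasi-likelihood test of edgeR 4.0.16 was run under R 4.3.3 on TMM-scaled counts (glmQLFit, glmQLFTest, 1 model over 9 libraries), with Benjamini-Hochberg adjustment over all of them and a threshold of 0.05. Log2 CPM used a prior count of 4. SE is the absolute log2 fold change over the square root of F. The study's methods state a filter at 0.5 CPM. The genes, lists and tests were chosen with earlier results of these data known. Besides the 8 genes, the text names listed genes past the threshold (of each list and comparison, at most the 4 largest changes), markers without reads, the 10 genes most similar to *Rnase2a* and the 3 most similar to each other tested gene. *Prg2*, *Prg3*, *Ear10*, *Rnase2b*, *Siglecf*, *Ccr3*, *Cebpe*, *Alox15*, *Gata2*, *Adgre1*, *Il4*, *Il5*, *Il13*, *Tslp*, *Ccl11*, *Chil4*, *Ms4a1* and *Cd79a* were chosen after seeing their values. The list of endothelial markers had 8 tested genes and 0 calls by edgeR in each comparison, with 0, 1 and 0 at an unadjusted p under 0.05.

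Transcripts and start regions were aligned end-gap free with Biopython 1.88. No pair of libraries within a group was a duplicate (chi-square over degrees of freedom, 9.88 to 53.8). Alternatives were other scaling factors, other filters, DESeq2 1.42.0, limma 3.58.1 on log2(FPKM + 1) and log2(FPKM + 0.1), the compared phases alone, the replicate number as a block, and leaving out each library. With 16434450 to 22729072 counts per library, genes near 0.5 CPM carry wide counting error.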

Additional observations from a re-analysis of the deposited data

How the results depend on the processing

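Of the fold changes of the 7 tested genes, 160 of 189 with 1 library left out and 167 of 186 under other settings kept their direction and their side of the threshold. The sign reversed for *Ear2* at WL1 against Pre without scaling factors (0.095), without a filter (0.0044), with the replicate block (0.0034) and over the fits leaving out 1 library (-0.15 to 0.15). With 1 library left out, it also reversed at WL1 against Pre for *Il1rl1* (-0.010 to 0.24), *Il5ra* (-3.99 to 0.051) and *Chil3* (-0.030 to 0.53), and at WL2 against Pre for *Il5ra* (-2.17 to 1.76). Genes called at WL1 against Pre numbered 1350, and 2344 with DESeq2, 844 with the replicate block and 512 to 1500 with 1 library left out, and listed genes numbered 15, and 25 with DESeq2 and 6 to 17. The 2 calls among the 7 genes became 1 to 2. At WL2 against Pre, leaving out 1 library gave 743 to 1688 genes, 1 to 3 of the 7 and 8 to 16 listed genes, against 1853, 3 and 15. At WL2 against WL1, the 681 genes, 1 of the 7 and 5 listed genes became 1248, 3 and 21 without a filter, 1935, 3 and 27 with DESeq2, 1053, 2 and 14 with the compared phases alone, and 37 to 1351, 0 to 2 and 1 to 17 with 1 library left out. The lowest 37 was without WL2 replicate 2. Limma on log2(FPKM + 1) and on log2(FPKM + 0.1) called 3 listed genes each. The replicate block called 330 genes and 0 of the 7, where *Ear2* lost its call at WL2 against WL1 (adjusted p = 0.0795, edgeR), and changed no other call of the 7. Same-numbered libraries correlated between -0.28 and 0.11 in their deviations from the group means, so that the numbers do not pair them. Without scaling factors, the median log2 fold change of all genes was 0.12, 0.16 and 0.049 in the 3 comparisons. The cause was not tested for any of these differences. Depth limits *Ear1*, *Il5* and, outside Pre replicate 2, *Il5ra*, with few reads beside the 3 that a count of 0 allows.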
